A study of Mus musculus with 6 samples.

Results

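Chemokine ligands, their G protein-coupled receptors and the atypical chemokine receptors were examined in primary neonatal mouse cardiomyocyte cultures with and without Cre-induced expression of RIT1 M90I, a disease variant of a RAS-related GTPase. Members were chosen by symbol alone, as every gene named Ccl, Cxcl, Ccr, Cxcr or Ackr with a number, together with Cx3cl1, Cx3cr1, Xcl1 and Xcr1. The rule found 67 rows among the 54532 genes of the table. These rows carry 62 different symbols, since 5 more entries repeat Ccl19, Ccl21a, Ccl21b or Ccl27, and 7 rows lie on unplaced scaffolds of the mouse genome. They comprise 45 rows for ligands, 18 for receptors and 4 for atypical receptors.

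All cultures came from newborn mice whose Rit1 locus was engineered so that Cre recombinase switches on the M90I allele, and all were infected with an adenovirus on day 3 after isolation. AdGFP cultures received virus encoding GFP and are given in the labels as Rit1 +/+. AdCre cultures received virus encoding GFP-Cre and are given as Rit1 M90I/+. There were 3 samples of either kind, and the numbers 1 to 3 recur in AdGFP and AdCre. Cells that stuck to plastic during a preplating step were left behind, and the remainder was seeded on laminin at about a heart per well in medium with serum. No further sorting of the cells is described. No wild-type culture given Cre is among the samples, and the variant and the recombinase cannot be told apart.

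Chemokines are small secreted proteins that bind to heparan sulfate on cell surfaces and direct the movement of leukocytes, which sense them through receptors coupled mainly to inhibitory G proteins. The CC and CXC families are named after the spacing of their first cysteines, and many of their genes lie in clusters that arose by duplication. Atypical receptors bind chemokines without signaling through G proteins and remove or redistribute them. In the heart, CXCL12 is made mainly by stromal and endothelial cells, while ligands of CCR2 such as CCL2 recruit monocytes, and resident macrophages are a well-known source of CC chemokines.

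Values are FPKM (fragments counted per kilobase of exon, with library size divided out), so that levels can be compared between genes of different length. Reads worked back from these values came to 25.3 to 26.5 megareads per AdGFP sample and 26.0 to 32.4 megareads per AdCre sample. Of 11 cardiomyocyte markers, all were measured in every sample, with Tnnt2 between 209.8 and 536.8 FPKM. Fibroblast markers were also high (summed level of 9 genes between 2277 and 4662 FPKM), and macrophage or monocyte markers were present (14 genes, 58.2 to 388.9 FPKM). Defining markers of lymphocytes (Cd3d, Cd3e, Nkg7 and Ncr1), neutrophils (Ly6g) and mast cells (Fcer1a) were listed at 0 in all 6 samples, while other genes of these lists had values. The mast cell list summed to 6.62, 8.69 and 8.74 FPKM in AdGFP 1 to 3 and to 20.4, 30.3 and 26.1 FPKM in AdCre 1 to 3, mostly from the protease Mcpt4. Of its 3 tested genes 2, Mcpt4 and Cma1, passed as higher in the blocked fit described below, where 2.64% of all genes did. In such bulk RNA, fewer cells of a type and less RNA per cell cannot be told apart.

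Of the 67 rows, 22 reached a mean of 0.5 FPKM over the 6 samples and were counted as detected and tested. They included 17 ligands, the receptors Cxcr4 and Ccr1, and the atypical receptors Ackr3 and Ackr1. Another 29 rows were above 0 in at least 1 sample but below that mean, and 16 rows were listed at 0 throughout. The cutoff fell between Cxcl1 (mean 0.518 FPKM), just inside, and Ccr10 (0.491 FPKM), just outside. Of the detected members, 18 also reached 0.5 FPKM in AdGFP alone, whereas others, such as Cxcl10, Ccl5 and Cxcl1, passed through their AdCre values.

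Cxcl12, the ligand of CXCR4 and ACKR3, had the highest mean of any member (47.8 FPKM) and stood at rank 953 among all genes. It was followed by Ccl6 (25.2 FPKM), Ccl2 (24.4 FPKM), Ccl7 (17.1 FPKM) and Cx3cl1 (12.7 FPKM), with Cxcl12 above Ccl2, Ccl7 and Cx3cl1 in each sample and below Ccl6 in AdCre 3 alone, while Ccl2 lay above Ccl7 in each sample and the order among the other 4 otherwise changed between samples. Receptors were lower, with Ackr3 at a mean of 4.77 FPKM, Cxcr4 at 2.96 FPKM and Ccr1 at 2.00 FPKM. Summed over all ligands, the level was 60.9, 143.1 and 187.0 FPKM in AdGFP 1 to 3 and 97.6, 203.1 and 297.2 FPKM in AdCre 1 to 3. Same-numbered samples thus differed by 1.60-, 1.42- and 1.59-fold, always toward AdCre. Cxcl12 made up 54.7%, 41.4% and 34.3% of that sum in AdGFP 1 to 3 and 34.5%, 22% and 17.4% in AdCre 1 to 3. Its share was therefore lower in the AdCre sample of each pair, while the share of the CC ligands encoded on chromosome 11 was higher (13.9%, 45.6% and 54.8% against 28.1%, 66.7% and 70.6%).

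**Figure D1:**
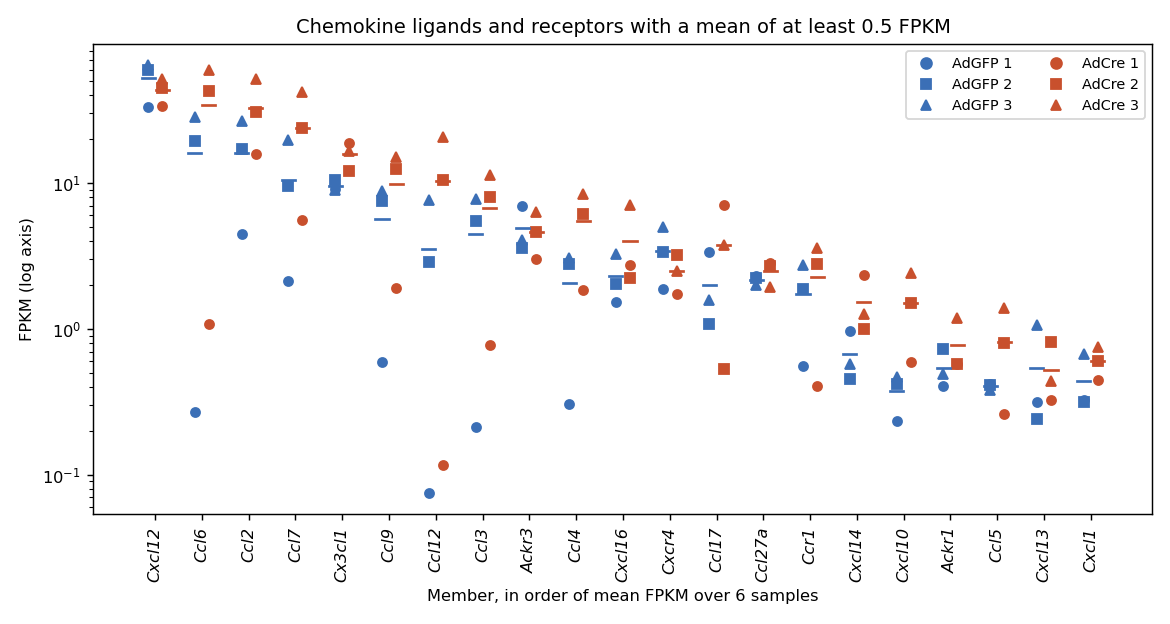
FPKM (log axis) of 21 members with a mean of at least 0.5 FPKM, ordered by that mean, in 3 AdGFP samples (blue) and 3 AdCre samples (red); symbols mark the replicate number and bars the group means. For Ccl6, Ccl9, Ccl12, Ccl3 and Ccl4 the samples numbered 1 lie far below those numbered 2 and 3 in both groups, and only Cx3cl1, Cxcl14 and Cxcl10 have all AdCre samples above all AdGFP samples.

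The comparison of AdCre with AdGFP asks which members changed when RIT1 M90I was switched on. In the limma fit with group alone, 0 of the 22 tested members passed an adjusted p of 0.05, against 0.00725% of all 13794 genes tested, which is a single gene, and voom on the worked-back reads also called 0 members. At an unadjusted p under 0.05 there were 3 members, Cx3cl1, Cxcl10 and Cxcl14, where 10.2% of all genes tested reached that value, and these were the members whose groups did not overlap. All 3 had every AdCre sample above every AdGFP sample, as had 7.36% of all tested genes. Point estimates were above 0 for 19 members and below 0 for Cxcl12, Cxcr4 and Ackr3. The median log2 fold change of the members was 0.66, and that of all tested genes was 0.00. Without AdCre 3 the members' median was 0.18, and without AdGFP 1 it was 0.24.

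Much of the spread within each group followed the replicate number, and same-numbered samples deviated together across the transcriptome. With the number fitted as a block, 7 of the 22 members passed, all of them ligands and all higher in AdCre, where 2.64% of all genes passed as higher. These were Ccl7, Ccl6, Ccl4, Ccl2, Ccl9, Cxcl14 and Cxcl10, of which Cxcl10 reached the cutoff only through its AdCre values. Within the pairs, 13 members were higher in AdCre in 3 of 3, as were 23.9% of all genes, and Cxcr4 alone was lower in 3 of 3. Without both samples numbered 1 there were 8 calls among members and 772 among all genes. Without those numbered 2 there were 2 (Ccl7 and Cx3cl1) and 149 among all genes, and without those numbered 3 there were 0 (9 at an unadjusted p under 0.05, as had 18.1% of all genes) and 1 among all genes, so the calls fell together over the whole table. The log2 fold changes of the 7 called members without pair 3 ran from 1.09 for Cxcl14 to 1.68 for Ccl4. The blocked calls also rested on the intensity trend in the variance estimate, without which the blocked fit called 0 members (13 at an unadjusted p under 0.05, as had 22.6% of all genes) and no gene at all.

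**Figure D2:**
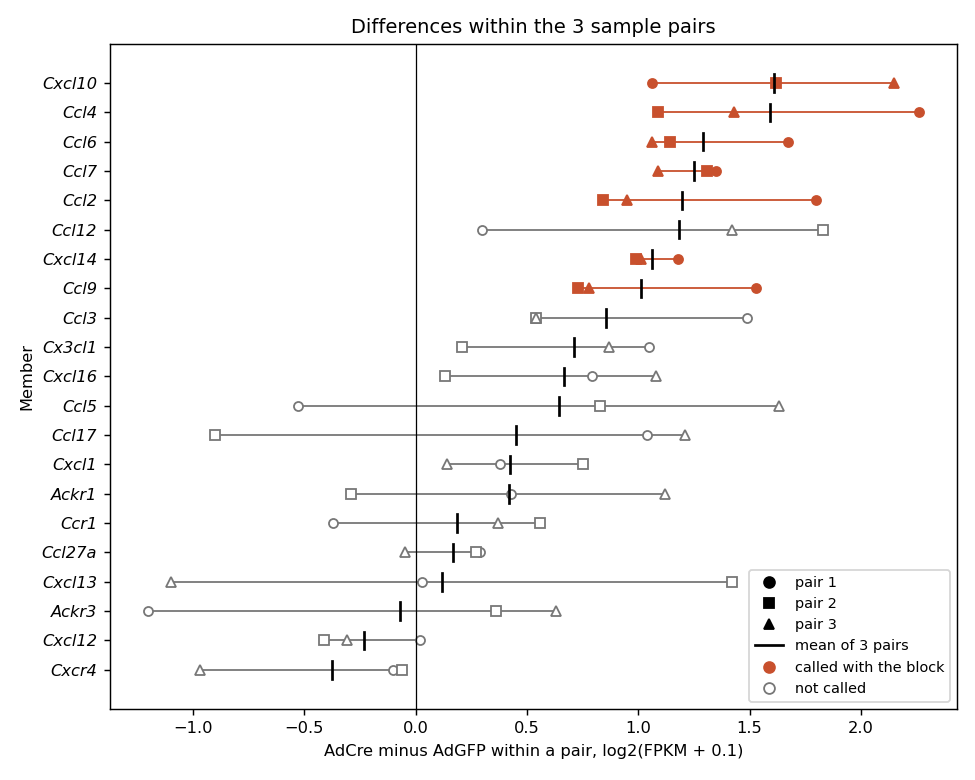
Difference between AdCre and AdGFP within each pair of same-numbered samples, on the log2(FPKM + 0.1) scale, for 21 tested members; symbols mark the pair, black ticks the mean of 3 pairs, and filled red symbols the 7 members called in the fit with the replicate block. All 3 pairs of the called members lie to the right of 0, from 0.73 for Ccl9 in pair 2 to 2.26 for Ccl4 in pair 1.

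The monocyte-attracting ligands of CCR2 lie within the same stretch of chromosome 11. Ccl2 (ENSMUSG00000035385, chr11:82035571-82037453, GRCm38) was at 4.48, 17.2 and 26.5 FPKM in AdGFP 1 to 3 and at 15.9, 30.8 and 51.4 FPKM in AdCre 1 to 3. Each AdCre sample exceeded its partner, by 3.54-, 1.80- and 1.94-fold, although the groups overlapped. Its log2 fold change of 1.20 had a standard error of 0.69 without the block (adjusted p = 0.638) and of 0.19 with it (adjusted p = 0.0304).

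Ccl7 (ENSMUSG00000035373, chr11:82045712-82047525), which also acts through CCR2, followed the same order of samples. It measured 2.12, 9.55 and 19.7 FPKM in AdGFP 1 to 3 and 5.57, 23.8 and 42.1 FPKM in AdCre 1 to 3. The pairs differed by 2.63-, 2.49- and 2.14-fold, the most even differences among the chromosome 11 ligands that passed. Its log2 fold change of 1.25 had a standard error of 0.96 without the block (adjusted p = 0.748) and of 0.09 with it (adjusted p = 0.00930), and it passed in 12 of 14 blocked fits run, more than any other member.

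Ccl12 (chr11:82101845-82103400), another CCR2 ligand of this stretch, was very low in the samples numbered 1. Its values were 0.0754, 2.86 and 7.63 FPKM in AdGFP 1 to 3 and 0.116, 10.5 and 20.6 FPKM in AdCre 1 to 3. AdCre 1 and AdGFP 1 held 2 reads and 1 read, too few for a ratio, and pairs 2 and 3 differed by 3.65- and 2.70-fold. The difference did not pass (log2 fold change 1.19, blocked standard error 0.29, blocked adjusted p = 0.0747), although Ccl12 passed in 5 of 14 blocked fits (adjusted p from 0.00374 to 0.292 over them). Without AdGFP 1 or AdCre 3 the estimate without the block was -0.40 or -0.07.

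A second cluster on chromosome 11 holds the ligands of CCR1 and their relatives. Ccl6 (ENSMUSG00000018927, chr11:83587882-83593087), a CCR1 ligand found in rodents, spanned the widest relative range over samples of any tested member other than Ccl12. It was at 0.271, 19.4 and 28.5 FPKM in AdGFP 1 to 3 and at 1.08, 42.8 and 59.4 FPKM in AdCre 1 to 3. Both samples numbered 1 were thus far below the others, and each AdCre sample exceeded its partner, by 3.99-, 2.21- and 2.08-fold. The log2 fold change of 1.29 had a standard error of 2.05 without the block (adjusted p = 0.902) and of 0.14 with it (adjusted p = 0.0149). The estimate without the block rested on AdGFP 1, without which it was -0.71.

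Ccl9 (ENSMUSG00000019122, chr11:83572919-83578636), its neighbour and likewise a CCR1 ligand, measured 0.598, 7.55 and 8.79 FPKM in AdGFP 1 to 3 and 1.92, 12.6 and 15.2 FPKM in AdCre 1 to 3. The pairs differed by 3.21-, 1.66- and 1.73-fold, and the log2 fold change was 1.01 (blocked standard error 0.18, blocked adjusted p = 0.0358). Without AdGFP 1 it was -0.17 in the fit without the block. Of the 50-base words in its transcripts, 1.97% also occur in other genes.

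Ccl4 (ENSMUSG00000018930, chr11:83662584-83664683), an attractant of monocytes and T cells, was at 0.307, 2.81 and 3.07 FPKM in AdGFP 1 to 3 and at 1.85, 6.10 and 8.42 FPKM in AdCre 1 to 3, a difference of 6.02-, 2.17- and 2.74-fold within pairs, the first of them on 5 against 39 reads. Its log2 fold change of 1.59 passed with the block only (standard error 0.23, blocked adjusted p = 0.0269).

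Ccl3 (chr11:83647844-83649355), which acts through CCR1, had the same direction in each pair but did not pass. Its levels were 0.211, 5.46 and 7.84 FPKM in AdGFP 1 to 3 and 0.774, 7.99 and 11.4 FPKM in AdCre 1 to 3 (log2 fold change 0.86, blocked adjusted p = 0.0757 and 0.0312 to 0.207 over 14 blocked fits, 2 of which called it, and -0.62 without the block and AdGFP 1). Ccl5 (chr11:83525778-83530518), a T cell and monocyte attractant in the same cluster, differed in direction between pairs. It measured 0.422, 0.411 and 0.380 FPKM in AdGFP 1 to 3, an unusually even set, and 0.260, 0.807 and 1.39 FPKM in AdCre 1 to 3 (log2 fold change 0.64, blocked adjusted p = 0.451).

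In all, 5 of the 8 tested CC ligands of chromosome 11 passed as higher with the block, where 2.64% of all genes did. Summed over the 11 members of both clusters, the level was 8.49, 65.2 and 102.4 FPKM in AdGFP 1 to 3 and 27.5, 135.5 and 209.9 FPKM in AdCre 1 to 3, or 3.24-, 2.08- and 2.05-fold higher within pairs. Macrophage or monocyte markers moved with it. All 12 tested genes of that list had a point estimate above 0, C1qb and Lyz2 passed as higher with the block, and the sum of the 14 genes was 58.2, 236.9 and 308.5 FPKM in AdGFP 1 to 3 and 101.8, 315.4 and 388.9 FPKM in AdCre 1 to 3. This is 1.75-, 1.33- and 1.26-fold higher within pairs. Per FPKM of marker sum, the chromosome 11 ligands stood at 0.146, 0.275 and 0.332 FPKM in AdGFP and at 0.270, 0.430 and 0.540 FPKM in AdCre. Lyz2 alone gave 31.5 of the 58.2 FPKM in AdGFP 1 and 191.2 of the 308.5 FPKM in AdGFP 3, so this ratio rests largely on Lyz2. Other markers differed more within a pair, such as Cd68 at 2.42-fold and Fcgr3 at 2.33-fold in pair 1, and others less, such as Adgre1 at 1.16-fold. The part of the macrophage content of the wells in these differences was not tested.

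**Figure D3:**
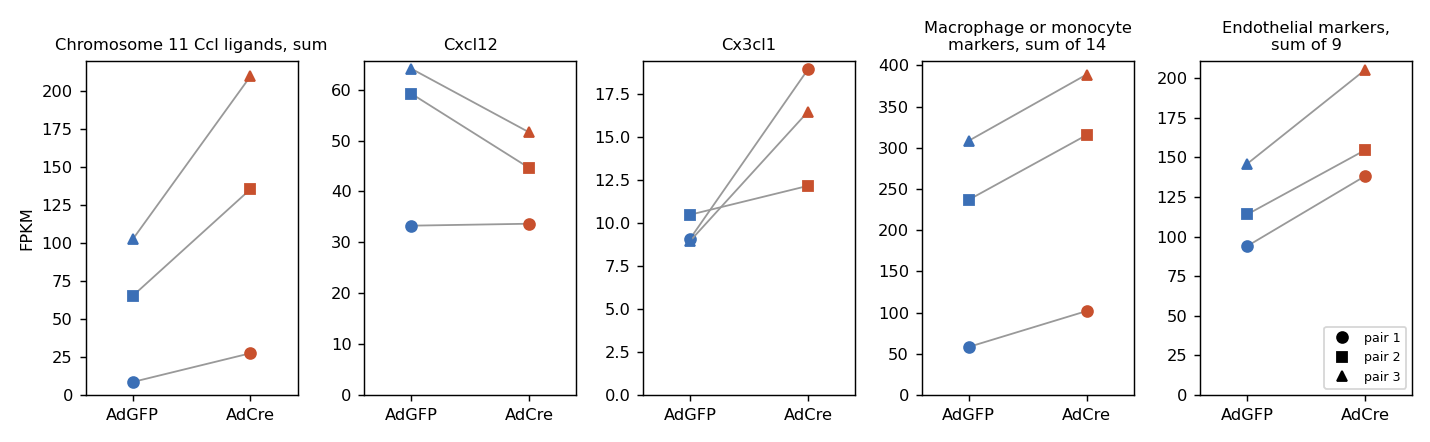
FPKM in AdGFP (blue) and AdCre (red), with lines joining same-numbered samples, for the summed CC ligands of chromosome 11, Cxcl12, Cx3cl1, 14 macrophage or monocyte markers and 9 endothelial markers; each panel has its own axis from 0. The chromosome 11 ligands and both marker sums are higher in AdCre in all 3 pairs, and Cxcl12 is lower in pairs 2 and 3.

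Outside chromosome 11, Cxcl10 and Cxcl14 passed with the block and had groups that did not overlap. The AdGFP mean of Cxcl10 was 0.374 FPKM, so it reached the cutoff, and with it the test, only through its AdCre values. Cxcl10 (ENSMUSG00000034855, chr5:92346638-92348889), an interferon-inducible ligand of CXCR3, was at 0.234, 0.420 and 0.468 FPKM in AdGFP 1 to 3 and at 0.596, 1.5 and 2.42 FPKM in AdCre 1 to 3. This rested on 13, 24 and 26 reads in AdGFP and on 43, 87 and 151 reads in AdCre, or 2.55-, 3.56- and 5.17-fold within pairs. Its log2 fold change of 1.61, which was 0.80 with a pseudocount of 1 FPKM (blocked adjusted p = 0.0607), had a standard error of 0.51 without the block (adjusted p = 0.365) and of 0.30 with it (adjusted p = 0.0418). An exon of Art3 covers 5.91% of its exons on the opposite strand, and whether reads were counted by strand is not given in the sources used here.

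Cxcl14 (ENSMUSG00000021508, chr13:56288643-56296551), a conserved ligand of epithelial and stromal tissue whose receptor is not settled, was highest in the samples numbered 1, unlike the ligands above. It measured 0.975, 0.453 and 0.577 FPKM in AdGFP 1 to 3 and 2.34, 0.996 and 1.26 FPKM in AdCre 1 to 3. The pairs differed by 2.40-, 2.20- and 2.19-fold, and the log2 fold change of 1.06 had a standard error of 0.40 without the block (adjusted p = 0.436) and of 0.20 with it (adjusted p = 0.0418).

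RefSeq promoters (build GRCm38.p6) are shown for the called members Cxcl10, Cxcl14, Ccl6 and Ccl9, and those of Ccl2, Ccl4 and Ccl7 were not analysed here. They are given so that the sequence next to each start can be read beside the changes. Each line gives the 250 bases before the start, 5′ to 3′ on the strand of the gene. Capitals mark matches, on either strand, to the ISRE core GAAANNGAAA bound by interferon-activated factors, the GAS core TTCNNNGAA of interferon-gamma-activated sites, the AP-1 core TGANTCA and the kappaB consensus bound by NF-kB.
Cxcl10 (chr5:92348890-92349139, minus strand): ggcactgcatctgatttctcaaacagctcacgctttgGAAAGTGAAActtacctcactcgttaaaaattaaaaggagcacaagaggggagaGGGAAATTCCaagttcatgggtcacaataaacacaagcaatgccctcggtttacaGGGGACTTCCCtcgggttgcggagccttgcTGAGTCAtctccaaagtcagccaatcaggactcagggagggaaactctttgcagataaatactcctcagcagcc
Cxcl14 (chr13:56296552-56296801, minus strand): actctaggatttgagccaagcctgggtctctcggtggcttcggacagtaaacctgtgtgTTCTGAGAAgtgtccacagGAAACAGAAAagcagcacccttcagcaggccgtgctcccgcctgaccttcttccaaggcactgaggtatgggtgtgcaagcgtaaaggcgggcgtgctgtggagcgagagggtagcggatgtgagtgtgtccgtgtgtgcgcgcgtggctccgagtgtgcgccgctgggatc
Ccl9 (chr11:83578637-83578886, minus strand): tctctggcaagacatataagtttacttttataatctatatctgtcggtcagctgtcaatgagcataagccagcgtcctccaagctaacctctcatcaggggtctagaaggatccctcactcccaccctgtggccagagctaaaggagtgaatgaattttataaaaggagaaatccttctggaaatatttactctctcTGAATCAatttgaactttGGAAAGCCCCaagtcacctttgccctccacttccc
Ccl6 (chr11:83593088-83593337, minus strand): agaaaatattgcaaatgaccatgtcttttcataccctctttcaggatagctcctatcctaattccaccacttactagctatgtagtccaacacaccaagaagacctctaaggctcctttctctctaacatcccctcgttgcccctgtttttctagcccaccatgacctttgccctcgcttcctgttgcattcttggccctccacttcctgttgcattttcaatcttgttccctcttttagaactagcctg
The Cxcl10 window held an ISRE core from -213 to -204 counted from the start, kappaB matches from -159 to -150, from -104 to -95 and from -103 to -94, the latter pair overlapping each other, and an AP-1 core from -74 to -68. Cxcl14 held a GAS core from -191 to -183 and an ISRE core from -172 to -163. Ccl9 held an AP-1 core from -53 to -47 and a kappaB match from -35 to -26, and Ccl6 held none of the motifs. No match overlapped that of another motif. Over all 32851 promoters, windows of this length held the ISRE core in 2.98%, the GAS core in 7.02%, the AP-1 core in 6.75% and the kappaB consensus in 7.25%. Of the 16 tested members with a promoter, 2 held the ISRE core (Cxcl10 and Cxcl14), 2 the GAS core (Ccl17 and Cxcl14), 3 the AP-1 core (Ccl27a, Ccl9 and Cxcl10) and 4 the kappaB consensus (Ccl9, Ccr1, Cxcl1 and Cxcl10). The percentages count promoters, whereas a member was counted by a match in any of its promoters, so they are not in the same unit. A match describes the letters and is not a binding site.

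Both ligands that are made as transmembrane proteins were measured. Cx3cl1 (ENSMUSG00000031778, chr8:94772009-94782427), the ligand of CX3CR1 and typical of endothelium, was at 9.08, 10.5 and 8.95 FPKM in AdGFP 1 to 3 and at 18.9, 12.2 and 16.5 FPKM in AdCre 1 to 3. The AdGFP samples lay close together and all AdCre samples lay above them. It had the smallest unadjusted p of any member in the fit without the block (0.00561), with a log2 fold change of 0.71 and a standard error of 0.18, but did not pass there (adjusted p = 0.294) or with the block (adjusted p = 0.0678). Of 14 blocked fits with other settings or pairs, that one included, Cx3cl1 passed in 4, which were TPM, both voom fits and the fit without number 2 (adjusted p from 0.00767 to 0.241 over the 14). Within pairs Cx3cl1 differed by 2.085-, 1.16- and 1.84-fold. Endothelial markers were also higher in AdCre, but ran in another order over the samples. All 9 had a point estimate above 0, and Cdh5, Flt1, Eng and Egfl7 passed as higher with the block, where 2.64% of all genes did. Their sum was 94.1, 114.1 and 146.1 FPKM in AdGFP 1 to 3 and 138.3, 154.7 and 205.4 FPKM in AdCre 1 to 3. This was 1.47-, 1.36- and 1.41-fold higher within pairs. The part of these markers in the level of Cx3cl1 was not tested.

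Cxcl16 (chr11:70453983-70459984), the ligand of CXCR6, measured 1.54, 2.04 and 3.29 FPKM in AdGFP 1 to 3 and 2.74, 2.24 and 7.09 FPKM in AdCre 1 to 3. It was higher in each pair, but the groups overlapped and it did not pass (log2 fold change 0.67, blocked adjusted p = 0.109 and 0.0230 to 0.355 over 14 blocked fits, 2 of which called it). Exons of Zmynd15 on the opposite strand cover 18.3% of its exons.

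Cxcl12 (ENSMUSG00000061353, chr6:117168535-117181367) was at 33.3, 59.2 and 64.1 FPKM in AdGFP 1 to 3 and at 33.7, 44.6 and 51.6 FPKM in AdCre 1 to 3. The samples numbered 1 were the lowest of both groups, and AdCre stood at 1.01, 0.754 and 0.805 of AdGFP in pairs 1 to 3. The log2 fold change of -0.23 did not pass (standard error 0.28, adjusted p = 0.857, and adjusted p = 0.226 with the block). The sum of 9 fibroblast markers was 2593, 3523 and 4662 FPKM in AdGFP 1 to 3 and 2277, 3053 and 3338 FPKM in AdCre 1 to 3, and 3 of them, Col3a1, Dcn and Lum, passed as lower with the block, where 3.51% of all genes did. Postn and Fbln1 had log2 fold changes of 0.10 and -0.04. Of the 11 cardiomyocyte markers, 6 passed as lower with the block. Whether either list had a part in the level of Cxcl12 was not tested.

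The remaining tested ligands did not pass with or without the block. Ccl17, a ligand of CCR4, was at 3.39, 1.07 and 1.58 FPKM in AdGFP 1 to 3 and at 7.05, 0.527 and 3.79 FPKM in AdCre 1 to 3, higher in pairs 1 and 3 and lower in pair 2. Ccl27a, a ligand of CCR10, was even at 2.30, 2.22 and 2.01 FPKM in AdGFP 1 to 3 and 2.82, 2.70 and 1.94 FPKM in AdCre 1 to 3, but 45.0% of its 50-base words occur in other genes and its level is uncertain to that extent. Cxcl13, a B cell attractant, was at 0.317, 0.240 and 1.06 FPKM in AdGFP 1 to 3 and at 0.326, 0.808 and 0.439 FPKM in AdCre 1 to 3. Cxcl1, which recruits neutrophils through CXCR2, was at 0.324, 0.315 and 0.671 FPKM in AdGFP 1 to 3 and at 0.450, 0.599 and 0.751 FPKM in AdCre 1 to 3. The blocked adjusted p was 0.557 for Ccl17, 0.489 for Ccl27a, 0.923 for Cxcl13 and 0.463 for Cxcl1.

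Of the receptors Cxcr4, Ccr1, Ackr3 and Ackr1, 0 passed in limma with or without the block, and 0 had an unadjusted p under 0.05 in either fit. Cxcr4 (ENSMUSG00000045382, chr1:128588199-128592293), the signaling receptor for CXCL12, was at 1.88, 3.38 and 5.03 FPKM in AdGFP 1 to 3 and at 1.74, 3.23 and 2.52 FPKM in AdCre 1 to 3. AdCre was lower in each pair, at 0.928, 0.957 and 0.5 of AdGFP, so that the difference came mostly from pair 3 (log2 fold change -0.38, standard error 0.38, adjusted p = 0.818). Ackr3, the atypical receptor that removes CXCL12, went down in pair 1 and up in the others. It measured 7.0, 3.57 and 4.08 FPKM in AdGFP 1 to 3 and 2.99, 4.62 and 6.36 FPKM in AdCre 1 to 3, and its log2 fold change of -0.07 turned positive with TPM scaling (0.02).

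Ccr1, the receptor for Ccl3, Ccl6 and Ccl9, was at 0.557, 1.87 and 2.76 FPKM in AdGFP 1 to 3 and at 0.408, 2.80 and 3.59 FPKM in AdCre 1 to 3 (log2 fold change 0.19, standard error 0.85, and -0.43 without AdGFP 1). It was lowest in the samples numbered 1 of either group, and ran in the order of the macrophage marker sum within each group. Ackr1, an atypical receptor of venular endothelium and red cells, was at 0.403, 0.730 and 0.491 FPKM in AdGFP 1 to 3 and at 0.578, 0.579 and 1.18 FPKM in AdCre 1 to 3. Its exons overlap Cadm3 on the same strand over 25.7% of their length, which leaves its level uncertain.

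Set against the receptors, 15 of the tested ligands have a receptor in a list of 33 textbook pairs, and 5 of them had such a receptor at 0.5 FPKM or more. These were Ccl3, Ccl5, Ccl6 and Ccl9, through Ccr1, and Cxcl12. For Ccl2, Ccl7 and Ccl12 the listed receptor Ccr2 stood between 0.0120 and 0.109 FPKM, on 2 to 19 reads in a sample. Cx3cr1, the receptor of Cx3cl1, was at 0.234, 0.438 and 0.666 FPKM in AdGFP 1 to 3 and at 0.381, 0.163 and 0.160 FPKM in AdCre 1 to 3. Cxcr3, the receptor of Cxcl10, had 0 reads in each AdGFP sample and 3, 1 and 1 reads in AdCre 1 to 3. Cxcr6, the receptor of Cxcl16, had 46, 13 and 3 reads in AdGFP 1 to 3 and 19, 11 and 2 reads in AdCre 1 to 3, lower in the AdCre sample of each pair.

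Ccr7, which guides dendritic cells and naive T cells to lymph nodes, had 0 reads in all 3 AdGFP samples and 24, 12 and 29 reads in AdCre 1 to 3 (0.379, 0.235 and 0.529 FPKM). Against a floor of 3 reads over the AdGFP group, and per read sequenced, the AdCre group was at least 19.7-fold higher. Its mean of 0.191 FPKM lay below the cutoff, and without a filter on low values it did not pass (adjusted p = 0.188, and adjusted p = 0.0924 with the block). With voom on the reads of genes with at least 10 reads in 3 samples, a fit added after the data were seen, it passed with the block (adjusted p = 0.000633, though it met that filter through its AdCre samples alone, where 6.92% of 15962 genes passed as higher) and did not without it (adjusted p = 0.0706). Its ligands Ccl19 and Ccl21a were listed at 0.

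**Figure D4:**
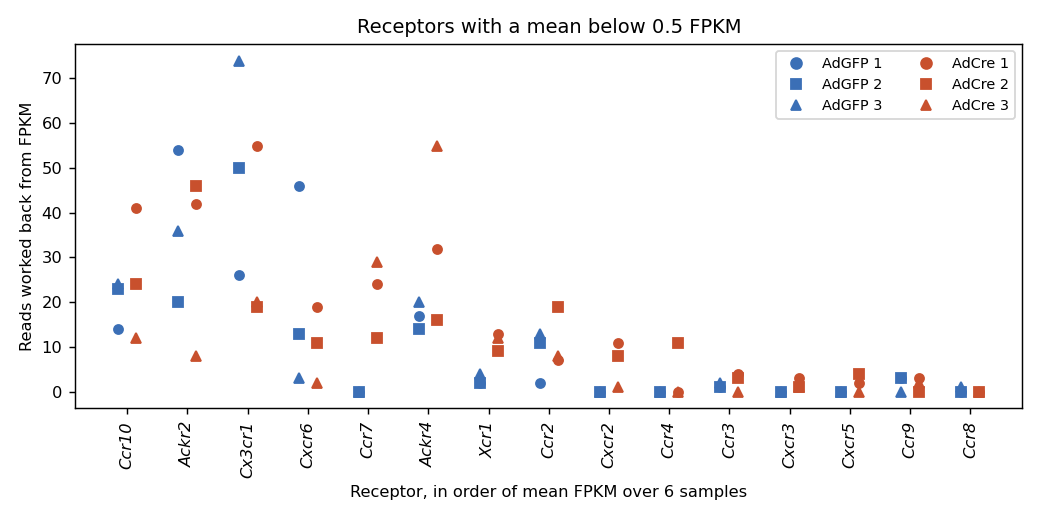
Reads worked back from FPKM for the 15 receptors with a mean below 0.5 FPKM, in 3 AdGFP samples (blue) and 3 AdCre samples (red), with symbols for the replicate number. Ccr7 lies at 0 in all AdGFP samples and at 12 to 29 reads in AdCre, and Xcr1 at 2 to 4 reads in AdGFP and 9 to 13 in AdCre.

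Among the other receptors below the cutoff, Xcr1, found on a subset of dendritic cells, had 2, 2 and 4 reads in AdGFP 1 to 3 and 13, 9 and 12 in AdCre 1 to 3. Cxcr2, a neutrophil receptor, had 0 reads in each AdGFP sample and 11, 8 and 1 in AdCre, at least 6.08-fold higher against the same floor. The sum of 7 neutrophil markers lay between 0.720 and 2.19 FPKM in AdGFP and between 1.04 and 2.17 FPKM in AdCre. That of 10 lymphocyte markers was 0.371, 0.172 and 0.0789 FPKM in AdGFP 1 to 3 and 1.17, 0.285 and 0.386 FPKM in AdCre 1 to 3, mostly from Cd79a and higher in the AdCre sample of each pair. Their part in the reads of these receptors was not tested, and no dendritic cell list was examined. Together with Ccr7 and Cxcr3, Xcr1 and Cxcr2 were the 4 members below the cutoff whose groups did not overlap, all of them higher in AdCre, a pattern shared by 5.07% of all genes that were below the cutoff and above 0 in any sample, and none of Xcr1, Cxcr2 and Cxcr3 passed in any of the fits that held them. Ccr4 had 11 reads in AdCre 2 and 0 in every other sample. Ccr10, Ackr2 and Ackr4 reached at most 0.742, 0.699 and 0.369 FPKM. No sample held more than 4 reads for Ccr3, Ccr8, Ccr9 or Cxcr5, and Ccr6 and Cxcr1 were listed at 0.

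Of the ligands below the cutoff, Ccl20 and Ccl25 came closest, with highest values of 0.593 and 0.540 FPKM. Cxcl5 reached 0.523 FPKM in AdCre 3 and at most 0.218 FPKM elsewhere. Cxcl2, a neutrophil attractant like Cxcl1, stayed at or below 0.157 FPKM, and Cxcl3 at or below 0.0775 FPKM. Ccl8, Ccl11, Ccl22, Ccl24, Ccl28, Cxcl9, Cxcl11, Cxcl15 and Cxcl17 never exceeded 10 reads in a sample. Cxcl9 and Cxcl11 share their cluster and their receptor with Cxcl10, but had at most 6 and 3 reads. Xcl1, Ccl1, Ccl26, Ccl19, Ccl21a, Ccl21b, Ccl21c, Ccl27 and Ccl27b were listed at 0. For these rows 3 reads would have stood for 0.0395 to 0.432 FPKM, a limit that covers counting error only. Near-identical copies make the zeros of Ccl21a, Ccl21b, Ccl27b and Ccl19 uncertain, since 71.6%, 100%, 98.1% and 52.0% of their 50-base words occur in other genes.

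The pathways that induce and transmit chemokine signals were followed in 5 lists of 95 genes that are no members, of which 80 were tested. In the fit without the block 0 of them passed and 7 had an unadjusted p under 0.05, a smaller share than the 10.2% of all genes, and with the block 7 passed, all higher in AdCre, where 2.64% of all genes did. Their median log2 fold change was 0.16, against 0.00 for all genes. Of 16 genes of an interferon signaling list, 3 passed with the block. Irf7, a transcription factor induced by type I interferon, was at 1.17, 1.47 and 2.5 FPKM in AdGFP 1 to 3 and at 2.31, 3.90 and 9.83 FPKM in AdCre 1 to 3 (log2 fold change 1.4, blocked adjusted p = 0.0269). Irf9, a subunit of the factor that binds ISRE sequences such as that shown for Cxcl10, had a log2 fold change of 0.65 (blocked adjusted p = 0.0430), and Irf1 one of 0.56 (blocked adjusted p = 0.0470). Each of these was higher in AdCre in each pair, with groups that overlapped.

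Among 16 inducing cytokines, only 5 reached the cutoff, and Csf1 alone passed with the block, where 2.64% of all genes passed as higher. Csf1, the growth factor on which macrophages depend, was at 56.0, 53.3 and 57.4 FPKM in AdGFP 1 to 3 and at 116.4, 77.7 and 80.6 FPKM in AdCre 1 to 3, without overlap (log2 fold change 0.70, blocked adjusted p = 0.0388). Tnf stayed at or below 0.514 FPKM and Il1b at or below 0.142 FPKM, while Ifng, Ifnb1, Ifnl2 and Il17a were listed at 0. Of 17 tested genes of the NF-kB pathway and its feedback targets, Icam1 alone passed with the block, against the same share of all genes. This leukocyte adhesion molecule was at 3.54, 3.65 and 7.06 FPKM in AdGFP 1 to 3 and at 6.05, 6.38 and 11.7 FPKM in AdCre 1 to 3 (log2 fold change 0.76, blocked adjusted p = 0.0169). Nfkbia, the feedback inhibitor of NF-kB, did not (log2 fold change 0.27, blocked adjusted p = 0.107) and is named after its value was seen.

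Downstream of the receptors, 1 of 26 tested signaling genes passed with the block, where 2.64% of all genes passed as higher and 3.51% as lower. The gene was Rgs16, which shuts off G proteins, at 21.2, 16.4 and 11.7 FPKM in AdGFP 1 to 3 and 29.1, 34.5 and 21.5 FPKM in AdCre 1 to 3, without overlap (log2 fold change 0.80, blocked adjusted p = 0.0303). Of 16 genes for related ligands and for the handling of chemokines, Sdc1 alone passed with the block, against the same shares of all genes. Sdc1, a syndecan whose heparan sulfate chains bind chemokines, was at 23.2, 29.9 and 29.8 FPKM in AdGFP 1 to 3 and at 34.2, 36.2 and 42.3 FPKM in AdCre 1 to 3, also without overlap (log2 fold change 0.45, blocked adjusted p = 0.0443).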

How the data were processed

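The authors deposited 1 table of FPKM values with a column per sample. Per the labels, poly-T-selected RNA was copied from random primers. The submitters' processing notes name fastp, STAR 2.5, HTSeq 0.6.1 and build mm10. Annotation release and strand use are not given in the sources used here. Of 54532 gene IDs, 54495 are in GENCODE M21, which gave symbols, exon lengths and positions. FPKM times exon length was a whole multiple of a step per sample (tolerance 0.05) for 96.6% to 96.7% of genes above 0, which gave the read numbers. The library scaling behind the FPKM differed from these sums.

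Genes averaging 0.5 FPKM or more over 6 samples were tested as log2(FPKM + 0.1), so fold changes of low genes are understated, with limma 3.58.1 (R 4.3.3), lmFit and eBayes with an intensity trend, a term for group and Benjamini-Hochberg adjustment over 13794 genes. A gene passed, or was called, at an adjusted p under 0.05. The labels call the samples biological replicates 1 to 3, but do not state whether equal numbers in AdGFP and AdCre share a preparation. Deviations from the group means correlated at 0.568, 0.268 and 0.506 between same-numbered samples and at -0.497 to 0.036 otherwise, so samples were treated as paired by number, and this number was fitted as a block as the alternative. The exact permutation test of 3 against 3 samples cannot go below 0.1. Nothing states that replicates are separate animals, so p-values measure the spread between these samples.

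Members at 0.5 FPKM or more are given per sample, except a tested member that is counted in totals but not reported here, lower ones by their highest value or reads, and pathway genes where called in either fit (at most 5 per list). Members and lists were chosen with earlier results of these data known. Alternatives were other pseudocounts, filters, scalings, variance models, left-out samples and voom on rounded reads. Scripts used Python, numpy, pandas and matplotlib.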

Additional observations from a re-analysis of the deposited data

How the results depend on the processing

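The count of 22 detected members was 31 at a mean of 0.1 FPKM, 16 at 1 FPKM, 35 when a value above 0 in every sample was asked for, and 19 to 23 when 1 sample was left out. No member and no pathway gene passed in any fit without the block, leave-one-out fits included (0 to 0 calls). With the replicate block 7 members passed (848 of all genes), and the count was 7 with a pseudocount of 1 (784), 8 with 0.01 (782), 1 without a filter (17 of 28445), 6 at a mean of 1 FPKM (922), 9 with TPM (875), 7 with median centring (778), 0 without the intensity trend (0) and 10 with voom on worked-back reads (1739). It was 8, 2 and 0 without both samples of number 1, 2 and 3. In fits chosen after seeing the data, it was 7 without the scaling factors of the authors (874) and 11 with voom on genes with 10 reads in 3 samples (1891 of 15962). The last of these fits tested 31 members in place of 22. For pathway genes the blocked counts were 7, 7, 7, 0, 7, 10, 7, 0 and 21 in the same order, then 7, 0 and 0, and 8 and 21. The cause of these shifts was not tested.

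Point estimates without the block changed sign for 8 members described here when 1 sample was left out. Their log2 fold changes then ran from -0.71 to 3.10 for Ccl6, from -0.17 to 1.94 for Ccl9, from -0.40 to 3.22 for Ccl12, from -0.62 to 2.01 for Ccl3, from -0.32 to 0.22 for Ackr3, from -0.28 to 1.47 for Ccl17, from -0.43 to 1.08 for Ccr1 and from -0.23 to 0.66 for Cxcl13. For members called with the block whose sign held, they ran from 0.46 to 1.72 for Ccl2, from 0.37 to 2.08 for Ccl7, from 0.62 to 2.23 for Ccl4, from 0.73 to 1.33 for Cxcl14 and from 1.19 to 2.12 for Cxcl10, and the median of the members from 0.18 to 0.96. Ackr3 also turned to 0.02 with TPM, with and without the block, and to 0.49 in the blocked fit without the samples of number 1. Without those of number 2, the blocked estimate was -0.0025 for Ccr1 and -0.54 for Cxcl13. TPM moved the median of all genes by 0.09.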
